A study of Homo sapiens with 14 samples.

Results

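The 53 genes described here lie on the distal long arm of chromosome 11, beyond 80 Mb on the GRCh37 (hg19) build, and were picked along the stretch where every edited line of this breast cancer series sat below the parental line. They were found by gene name in the table of all genes, which held 52 of them among 19410 genes. JAM3 is not analysed here. The table used older symbols for 3 members, MRE11A, PVRL1 and SRPR, which are MRE11, NECTIN1 and SRPRA today. The 52 genes ran from PRCP (chr11:82533978-82681626) to ACAD8 (chr11:134123442-134135749), 26 on each strand. The members were chosen by their position and by their fall from the parental level in these same data. For that reason the members' values against the parental line are given as a description. Counts past the call threshold appear there only beside the share of all tested genes, and they test nothing about the members. Tests are given only between edited lines and for genes elsewhere in the genome.

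MDA-MB-231 is an established triple-negative breast cancer line. Untreated parental cells (Parental) were compared with lines edited by CRISPR/Cas9 to disrupt SAP30 (SAP30-KO1 and SAP30-KO2), SIN3A together with SIN3B (SIN3A+SIN3B-DKO1 and SIN3A+SIN3B-DKO2), or MLL1, the gene listed as MLL and now named KMT2A (MLL1-KO1 and MLL1-KO2). Each of the 7 conditions had 2 libraries, 14 in all. The study's methods describe each edited line as a mixture, grown from several single edited cells after drug selection. A line is thus neither a clone nor a replicate of its genotype. The same 2 parental libraries served every comparison with parental. Nothing in the labels says that libraries of a condition came from separate cultures, so the spread between them may be technical.

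SAP30 and the SIN3 proteins are parts of a corepressor complex that carries histone deacetylases, and MLL1 is a histone H3 lysine 4 methyltransferase. The distal long arm of chromosome 11 carries genes for the DNA damage response (ATM, MRE11A, CHEK1), the inhibitors of apoptosis BIRC2 and BIRC3, the transcription factors ETS1 and FLI1, and MLL1 itself. Only RNA was measured. The DNA of these lines is not analysed here.

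Levels are given in TPM (a transcript's share of its library, scaled for gene length), with replicate 1 before replicate 2. Reads recovered from the steps of the values numbered 18415036 to 23162682 per library. SAP30 stood at 78.9 and 82.8 TPM in parental cells and at no more than 4.96 TPM in the SAP30-KO libraries. SIN3B was lower in the libraries labelled SIN3A+SIN3B-DKO (43.5 to 50.2 TPM against 75.1 and 77.4), whereas SIN3A was higher there (55.1 to 62.5 TPM against 43.1 and 45.4). RNA level alone therefore did not show the loss of SIN3A. MLL (chr11:118307171-118397547) stood at 56.7 and 49.0 TPM in parental cells, at 15.8 to 27.7 TPM in the MLL1-KO lines, and also at 23.0 to 35.4 TPM in the SAP30-KO lines. Of the markers of the cell line, VIM, CD44, KRT18 and AXL were expressed in all 14 libraries, ESR1 and PGR reached at most 0.191 and 0.139 TPM, CDH1 reached at most 1.25 TPM, and ERBB2 stood at 21.9 to 42.8 TPM. The 2 libraries of SIN3A+SIN3B-DKO2 differed more from each other than those of any other condition (chi-square per degree of freedom of the reads 8, against 1.47 to 3.77), and values without each of them are in the closing section.

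The members were mostly well-expressed genes, with a median parental level of 67.8 TPM against 25.5 TPM over the 13540 genes tested and 32.1 TPM over the other 151 tested genes of the arm. Of the 52 genes, 47 passed the filter of at least 1 TPM in at least 2 libraries. Their median log2 fold change from parental, on the log2(TPM + 0.5) scale, was -0.80 for SAP30-KO1 and -0.78 for SAP30-KO2, which is 57.2% and 57.9% of the parental level. MLL1-KO1 had a median of -0.93 (52.1% of parental) and MLL1-KO2 one of -0.42 (74.2%). The SIN3A+SIN3B-DKO lines showed the smallest shift, with -0.35 (78.2%) in SIN3A+SIN3B-DKO1 and -0.24 (84.8%) in SIN3A+SIN3B-DKO2. The medians of the 2 libraries of a line differed with a pooled SD of 0.0289. Because these are bulk libraries of mixed lines, a lower level in every cell and a fall in some of the cells cannot be told apart. In the same lines the other 151 genes of the arm had medians of -0.75, -0.78, -0.24, -0.21, -0.93 and -0.35 (SAP30-KO, SIN3A+SIN3B-DKO and MLL1-KO lines in that order), and the 12248 tested genes of other chromosomes had medians between -0.09 and 0.04.

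A gene was called when its limma p, adjusted by the Benjamini-Hochberg method over all genes tested, was under 0.05 and its change was at least 1.5-fold. Against parental, 36 members in SAP30-KO1 were called lower, where 7.86% of all tested genes were, and 37 in SAP30-KO2, where 8.12% were. In SIN3A+SIN3B-DKO1 and SIN3A+SIN3B-DKO2 there were 7 and 4 members called lower, beside 8.66% and 7.56% of all tested genes. MLL1-KO1 had 42 called lower (16.3% of all tested genes) and 1 higher (6.89%), whereas MLL1-KO2 had 16 called lower (14.9%) and 2 higher (10.2%). Of the 47 members 34 lay below parental in all 6 lines, and 4 (TMEM123, CHORDC1, ENDOD1 and ACAT1) were called lower in all 6, where 2.67% of all tested genes were. Of the other 151 genes of the arm, 96 lay below parental in all 6 lines and 13 were called lower in all 6. These counts describe the choice of the members and are no test of it.

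**Figure D1:**
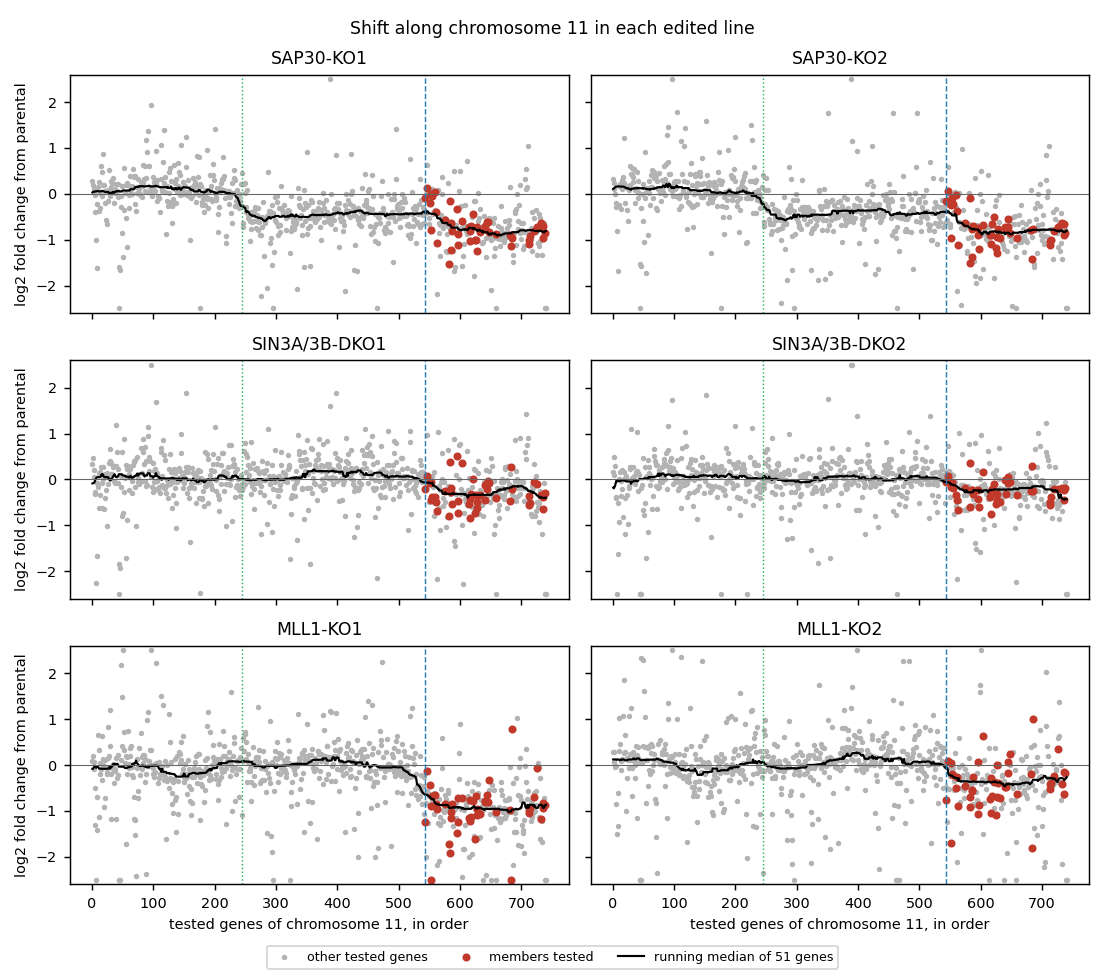
Log2 fold change from parental (y axis) of the tested genes of chromosome 11 in their order along the chromosome (x axis), in each of the 6 edited lines. Members are red, other genes grey, the black line is the running median of 51 genes, the dotted line marks the start of the long arm genes and the dashed line the start of the distal arm, and values beyond the axis are drawn at its edge. In the SIN3A+SIN3B-DKO and MLL1-KO lines the running median lies near 0 over most of the chromosome before the distal arm, whereas in both SAP30-KO lines it steps down at the start of the long arm (medians -0.46 and -0.44) and again within the distal arm.

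The shift did not begin at the same place in every line. In the SAP30-KO lines the 297 tested genes of the long arm before 80 Mb already had medians of -0.46 and -0.44, and 91.2% and 89.9% of them lay below 0. The same 297 genes had medians of 0.06 and 0.01 in the SIN3A+SIN3B-DKO lines and of -0.01 and 0.07 in the MLL1-KO lines. In MLL1-KO1 the last 69 of them, from 70 Mb on, had a median of -0.12, against 0.07 for MLL1-KO2. The short arm, with 245 tested genes, had medians from -0.08 to 0.10 in the 6 lines. Just outside the 80 Mb limit, NARS2 had log2 fold changes of -0.33, -0.37, 0.06, 0.11, -0.26 and 0.005 in the order of lines above, and the first gene inside it, PRCP, had -0.10, -0.15, -0.21, -0.07, -1.24 and -0.76.

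Between 80 and 87 Mb, limits that were set after the values were seen, lay 17 tested genes, among them 7 members: PRCP, PCF11, CREBZF, SYTL2, PICALM, EED and TMEM135. In the SAP30-KO lines the medians of these 7 were -0.04 and -0.15. In MLL1-KO1 the median was -0.69, and all 17 genes lay below 0. Beyond 89 Mb the 39 members had medians of -0.84 and -0.85 in the SAP30-KO lines, -0.35 and -0.26 in the SIN3A+SIN3B-DKO lines, and -0.95 and -0.45 in the MLL1-KO lines. Apart from SYTL2 (-0.80 and -0.97), the proximal members sat between -0.24 and 0.12 in SAP30-KO cells, while in MLL1-KO1 cells all 7 lay below parental, PCF11 least (-0.14).

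PRCP, a lysosomal carboxypeptidase and the most abundant of the proteases among the members, showed this pattern at 165 and 165 TPM in parental cells, with SAP30-KO1 at 152 and 157, SAP30-KO2 at 150.2 and 147, SIN3A+SIN3B-DKO1 at 142 and 144, SIN3A+SIN3B-DKO2 at 153 and 163, MLL1-KO1 at 67.6 and 72.1 and MLL1-KO2 at 97.5 and 97.4. Its levels in the SAP30-KO and SIN3A+SIN3B-DKO libraries lay just below the parental ones, and all MLL1-KO libraries lay well below both. PICALM (chr11:85668218-85780924), a clathrin assembly protein of endocytic pits and the most abundant of the membrane trafficking members, stood at 203 and 188 TPM in parental cells, with SAP30-KO1 at 197 and 189, SAP30-KO2 at 184 and 184, SIN3A+SIN3B-DKO1 at 187 and 186, SIN3A+SIN3B-DKO2 at 176 and 199.7, MLL1-KO1 at 104 and 104 and MLL1-KO2 at 171 and 170.5. The MLL1-KO1 libraries lay far below parental, and those of MLL1-KO2 and the other lines lay near or just under it. PCF11 (chr11:82868030-82898493), a factor of transcript cleavage and transcription termination, stood at 22.6 and 21.8 TPM in parental cells, with SAP30-KO1 at 23.7 and 24.5, SAP30-KO2 at 23.0 and 23.1, SIN3A+SIN3B-DKO1 at 23.6 and 22.9, SIN3A+SIN3B-DKO2 at 22.7 and 24.5, MLL1-KO1 at 21.04 and 19.4 and MLL1-KO2 at 22.4 and 24.7. Its 14 values spanned 19.4 to 24.7 TPM, it had the highest mean departure of all members from the arm (0.59). CREBZF (chr11:85368786-85393951), a bZIP transcription factor, stood at 19.9 and 17.96 TPM in parental cells, with SAP30-KO1 at 17.04 and 15.7, SAP30-KO2 at 14.9 and 17.1, SIN3A+SIN3B-DKO1 at 18.5 and 17.4, SIN3A+SIN3B-DKO2 at 19.1 and 16.8, MLL1-KO1 at 13.7 and 14.1 and MLL1-KO2 at 19.2 and 19.8. It lay lowest in MLL1-KO1 and in the parental range in MLL1-KO2.

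**Figure D2:**
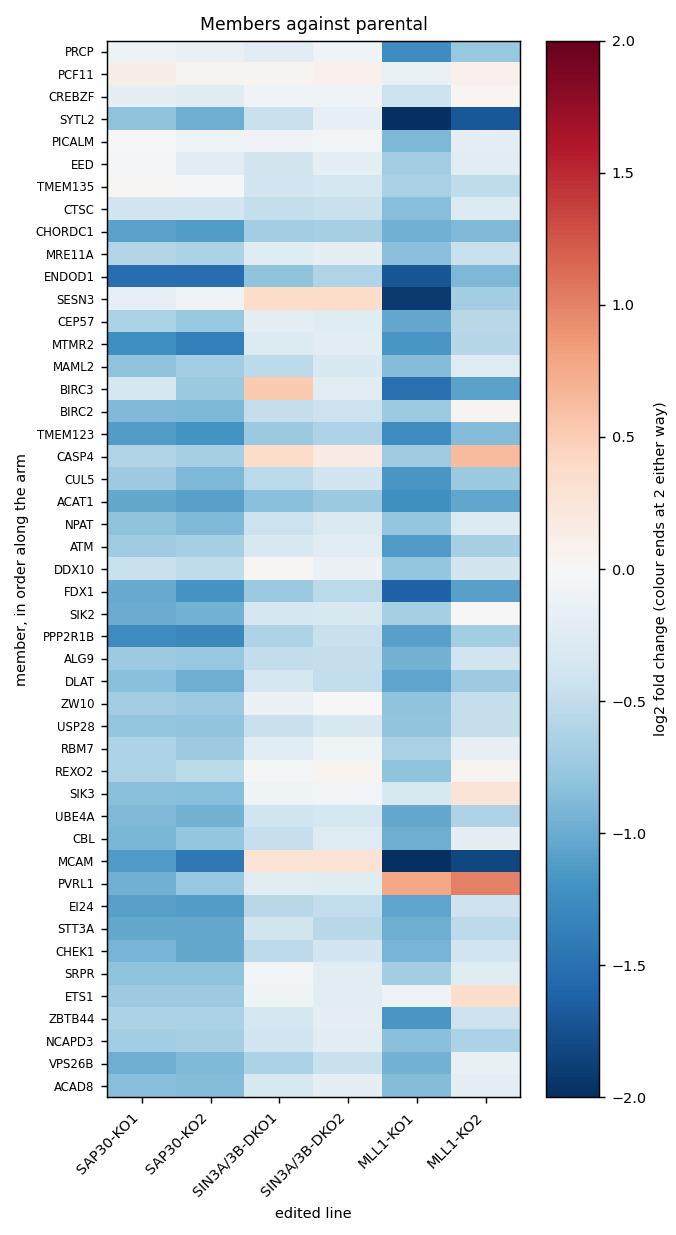
Log2 fold change from parental of the 47 tested members (rows, in order along the arm) in the 6 edited lines (columns). Blue is lower and red higher than parental, with the colour ends at 2 in either direction; most rows are blue throughout, while SESN3, BIRC3, CASP4, MCAM, PVRL1 and ETS1 are among those that change colour between lines.

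By role, the genes of the DNA damage response followed the arm. The 4 members (MRE11A, a nuclease of double-strand break repair, the kinases ATM and CHEK1, and the deubiquitinase USP28) had medians of -0.74 and -0.72 in the SAP30-KO lines, -0.37 and -0.26 in the SIN3A+SIN3B-DKO lines, and -0.89 and -0.46 in the MLL1-KO lines. CHEK1 (chr11:125495058-125546150), the checkpoint kinase activated by ATR and the most abundant of them, stood at 70.9 and 67.8 TPM in parental cells, with SAP30-KO1 at 37.4 and 34.97, SAP30-KO2 at 34.2 and 33.9, SIN3A+SIN3B-DKO1 at 48.1 and 48.6, SIN3A+SIN3B-DKO2 at 49.3 and 56.8, MLL1-KO1 at 35.8 and 36.4 and MLL1-KO2 at 54.03 and 51.03. All 12 edited libraries lay below both parental ones. The 3 members of mitosis and the centrosome (CEP57, ZW10 and NCAPD3) had medians of -0.69, -0.72, -0.18, -0.23, -0.83 and -0.55 in the same order of lines.

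Among 7 tested members of cell death and the ubiquitin system, medians were -0.88 and -0.90 in the SAP30-KO lines and -1.02 and -0.41 in the MLL1-KO lines. EI24 (chr11:125439176-125454579), a protein of the endoplasmic reticulum known from the p53 response, stood at 260.3 and 254 TPM in parental cells, with SAP30-KO1 at 122 and 120.3, SAP30-KO2 at 118 and 118, SIN3A+SIN3B-DKO1 at 176 and 172, SIN3A+SIN3B-DKO2 at 176 and 189.5, MLL1-KO1 at 127 and 122 and MLL1-KO2 at 196 and 190.1. Every edited library lay below parental, with those of SAP30-KO and MLL1-KO1 at 118 to 127 TPM. BIRC2 (chr11:102217942-102249401) and BIRC3 (chr11:102188215-102210134), which encode the inhibitors of apoptosis cIAP1 and cIAP2, are neighbours and close paralogs, and how reads shared between them were counted is not stated. BIRC2 stood at 88.6 and 81.9 TPM in parental cells, with SAP30-KO1 at 47.2 and 44.8, SAP30-KO2 at 45.2 and 45.4, SIN3A+SIN3B-DKO1 at 63.1 and 59.9, SIN3A+SIN3B-DKO2 at 59.6 and 66.4, MLL1-KO1 at 52.9 and 50.4 and MLL1-KO2 at 90.0 and 88.03. BIRC3 stood at 11.3 and 10.9 TPM in parental cells, with SAP30-KO1 at 9.47 and 7.93, SAP30-KO2 at 6.56 and 6.30, SIN3A+SIN3B-DKO1 at 15.5 and 16.7, SIN3A+SIN3B-DKO2 at 9.66 and 9.16, MLL1-KO1 at 3.60 and 3.66 and MLL1-KO2 at 4.93 and 5.12. The pair parted in MLL1-KO2, where BIRC2 was at the parental level and BIRC3 below it, and in SIN3A+SIN3B-DKO1, where BIRC3 was above parental and BIRC2 below it. CASP4 (chr11:104813593-104840093), an inflammatory caspase that senses lipopolysaccharide, stood at 106 and 113 TPM in parental cells, with SAP30-KO1 at 68.9 and 75.5, SAP30-KO2 at 65.1 and 72.5, SIN3A+SIN3B-DKO1 at 141 and 141, SIN3A+SIN3B-DKO2 at 125 and 119.8, MLL1-KO1 at 63.7 and 69.99 and MLL1-KO2 at 168 and 171. It was below parental in SAP30-KO and MLL1-KO1 cells and above it in MLL1-KO2 and SIN3A+SIN3B-DKO cells.

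The 6 members of mitochondria and metabolism had medians of -0.85 and -0.91 in the SAP30-KO lines and of -0.97 and -0.62 in the MLL1-KO lines. REXO2 (chr11:114310157-114321001), a mitochondrial oligoribonuclease and the most abundant of them, stood at 279.7 and 275 TPM in parental cells, with SAP30-KO1 at 176 and 188, SAP30-KO2 at 190.3 and 192, SIN3A+SIN3B-DKO1 at 271 and 267, SIN3A+SIN3B-DKO2 at 284 and 289.9, MLL1-KO1 at 154 and 164 and MLL1-KO2 at 289 and 289. It lay around the parental level in SIN3A+SIN3B-DKO and MLL1-KO2 cells and below it elsewhere. ACAT1 (chr11:107987422-108018330), the mitochondrial acetoacetyl-CoA thiolase, stood at 182 and 189 TPM in parental cells, with SAP30-KO1 at 88.4 and 92.5, SAP30-KO2 at 83.3 and 90.7, SIN3A+SIN3B-DKO1 at 103 and 104, SIN3A+SIN3B-DKO2 at 111 and 109, MLL1-KO1 at 79.5 and 79.6 and MLL1-KO2 at 90.01 and 89.5. ACAT1 was below parental in every edited library, by log2 fold changes from -0.75 to -1.22 (SE 0.04). FDX1 (chr11:110300672-110335608), a mitochondrial ferredoxin, stood at 41.5 and 38.6 TPM in parental cells, with SAP30-KO1 at 20.6 and 18.6, SAP30-KO2 at 17.5 and 17.2, SIN3A+SIN3B-DKO1 at 24.1 and 23.4, SIN3A+SIN3B-DKO2 at 26.8 and 27.8, MLL1-KO1 at 12.1 and 13.5 and MLL1-KO2 at 17.9 and 19.2. FDX1 lay farther below parental than the arm in both MLL1-KO lines, with departures of -0.67 and -0.73.

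The 3 members of the endoplasmic reticulum and glycosylation had medians of -0.80, -0.81, -0.36, -0.47, -0.95 and -0.40 in the order of lines above, and the 3 of RNA processing had -0.44, -0.51, 0.02, -0.09, -0.65 and -0.17. STT3A (chr11:125461607-125495110), a catalytic subunit of the oligosaccharyltransferase and the most abundant of the endoplasmic reticulum members, stood at 447 and 463 TPM in parental cells, with SAP30-KO1 at 221 and 229, SAP30-KO2 at 226 and 220.1, SIN3A+SIN3B-DKO1 at 349.7 and 360.3, SIN3A+SIN3B-DKO2 at 319.5 and 297, MLL1-KO1 at 232 and 228 and MLL1-KO2 at 321 and 314. In SAP30-KO1, SAP30-KO2 and MLL1-KO1 its log2 fold changes were -1.02, -1.03 and -0.98 (SE 0.04). DDX10 (chr11:108535785-108811726), an RNA helicase of ribosome biogenesis, stood at 93.3 and 92.3 TPM in parental cells, with SAP30-KO1 at 67.2 and 69.4, SAP30-KO2 at 64.7 and 65.7, SIN3A+SIN3B-DKO1 at 92.2 and 95.95, SIN3A+SIN3B-DKO2 at 82.6 and 89.7, MLL1-KO1 at 51.7 and 55.6 and MLL1-KO2 at 71.6 and 72.2. The SIN3A+SIN3B-DKO1 libraries lay to either side of the parental values, and all other edited libraries lay below them. CHORDC1 (chr11:89933597-89956245), a co-chaperone of HSP90 in the signalling and stress group, stood at 93.6 and 94.4 TPM in parental cells, with SAP30-KO1 at 44.9 and 44.5, SAP30-KO2 at 42.99 and 43.1, SIN3A+SIN3B-DKO1 at 59.02 and 56.9, SIN3A+SIN3B-DKO2 at 56.7 and 61.3, MLL1-KO1 at 50.2 and 46.1 and MLL1-KO2 at 50.4 and 50.7. It was among the few members that lay beyond 1.5-fold below parental in both SIN3A+SIN3B-DKO lines (-0.69 and -0.67, SE 0.05).

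The 3 tested members of the cell surface parted from each other. TMEM123 (chr11:102267063-102341115), porimin, a glycosylated surface protein and the member with the highest parental level, stood at 482 and 447 TPM in parental cells, with SAP30-KO1 at 219 and 207, SAP30-KO2 at 203 and 200.3, SIN3A+SIN3B-DKO1 at 282 and 275, SIN3A+SIN3B-DKO2 at 274 and 336, MLL1-KO1 at 194 and 196 and MLL1-KO2 at 261 and 249.9. All edited libraries lay below parental. MCAM (chr11:119179239-119192231), the adhesion molecule CD146, stood at 188 and 185 TPM in parental cells, with SAP30-KO1 at 86.6 and 83.1, SAP30-KO2 at 69.7 and 67.9, SIN3A+SIN3B-DKO1 at 223 and 225, SIN3A+SIN3B-DKO2 at 238 and 217, MLL1-KO1 at 21.4 and 20.8 and MLL1-KO2 at 53.8 and 51.2. It was above parental in the SIN3A+SIN3B-DKO lines, lower in the SAP30-KO lines and lowest in MLL1-KO1, where the log2 fold change was -3.11 (SE 0.05). PVRL1 (chr11:119494120-119599910), which encodes the adhesion protein nectin-1, stood at 32.7 and 33.98 TPM in parental cells, with SAP30-KO1 at 17.4 and 16.5, SAP30-KO2 at 20.1 and 18.9, SIN3A+SIN3B-DKO1 at 28.7 and 28.4, SIN3A+SIN3B-DKO2 at 27.4 and 28.7, MLL1-KO1 at 58.2 and 57.05 and MLL1-KO2 at 67.2 and 67.7. It was the reverse of MCAM in the MLL1-KO lines, where all 4 libraries lay above parental, with log2 fold changes of 0.78 and 1.01 (SE 0.05). MCAM overlaps CBL on the other strand by 5398 bases, and whether the counting used strand is not stated.

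The departure of a member was its log2 fold change minus the median of the other 151 arm genes in the same line, and a member was taken to depart when it lay beyond 1.5-fold (0.58 on the log2 scale) in 1 direction in at least 4 of the 6 lines. By that measure 0 members departed and 30 of 47 stayed within 1.5-fold of the arm in all 6 lines. Without parental replicate 1 there was 1, SESN3, above the arm. The highest mean departures over the 6 lines were those of PCF11 (0.59), PVRL1 (0.48), CASP4 (0.41), CREBZF (0.38) and PICALM (0.33), and the lowest those of ENDOD1 (-0.63), MCAM (-0.61), SYTL2 (-0.58), FDX1 (-0.48) and ACAT1 (-0.45). Counted by genotype, a measure added after the values were seen, 12 members lay beyond 1.5-fold of the arm in both lines of a genotype. In the SAP30-KO lines 5 were above the arm (PRCP, PCF11, PICALM, TMEM135 and SESN3, of which the first 4 start before 87 Mb) and ENDOD1 was below it. In the MLL1-KO lines PVRL1, ETS1 and SIK3 were above and MCAM, SYTL2 and FDX1 below. The SIN3A+SIN3B-DKO lines had 0 such members.

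ENDOD1 (chr11:94823010-94865809), which carries an endonuclease domain, stood at 58.6 and 58.5 TPM in parental cells, with SAP30-KO1 at 19.5 and 20.5, SAP30-KO2 at 19.7 and 20.5, SIN3A+SIN3B-DKO1 at 32.5 and 34.1, SIN3A+SIN3B-DKO2 at 34.9 and 42.1, MLL1-KO1 at 17.4 and 17.6 and MLL1-KO2 at 31.7 and 30.4. Of the 47 members it lay lowest against parental in both SAP30-KO lines, at -1.53 and -1.52 (SE 0.07). SYTL2 (chr11:85405267-85522202), an effector of Rab27 in vesicle transport, stood at 11.03 and 11.1 TPM in parental cells, with SAP30-KO1 at 5.999 and 6.28, SAP30-KO2 at 5.51 and 5.27, SIN3A+SIN3B-DKO1 at 8.19 and 7.73, SIN3A+SIN3B-DKO2 at 9.91 and 9.82, MLL1-KO1 at 1.26 and 1.33 and MLL1-KO2 at 2.98 and 3.18. Its MLL1-KO libraries lay far below those of every other condition. SESN3 (chr11:94898677-94965705), a stress-induced sestrin, stood at 5.31 and 5.08 TPM in parental cells, with SAP30-KO1 at 4.87 and 4.32, SAP30-KO2 at 4.80 and 4.92, SIN3A+SIN3B-DKO1 at 6.89 and 6.87, SIN3A+SIN3B-DKO2 at 6.13 and 7.64, MLL1-KO1 at 1.16 and 0.874 and MLL1-KO2 at 2.79 and 3.26. At these low levels its SE was 0.13, the SAP30-KO libraries lay just under parental, and the SIN3A+SIN3B-DKO libraries lay above it.

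A further 15 members lay below parental in all 6 lines, and of these EED alone lay beyond 1.5-fold of the arm in a line (0.71 above it in SAP30-KO1). Among regulators of transcription and chromatin, EED, the Polycomb repressive complex 2 subunit that binds methylated histone H3, ranged from -0.69 to -0.04 in log2 fold change over the 6 lines, the Notch coactivator MAML2 from -0.86 to -0.26 and the zinc finger protein ZBTB44 from -1.17 to -0.20. Among ubiquitin ligases, the cullin CUL5 ranged from -1.16 to -0.39, UBE4A from -1.02 to -0.35 and CBL, which acts on receptor tyrosine kinases, from -0.97 to -0.19. These genes were lowest in MLL1-KO1 and highest in SIN3A+SIN3B-DKO2 or MLL1-KO2, except EED, which was highest in SAP30-KO1. DLAT, the E2 subunit of pyruvate dehydrogenase, ranged from -1.06 to -0.34, the acyl-CoA dehydrogenase ACAD8 from -0.87 to -0.18, and the mannosyltransferase ALG9 from -0.95 to -0.40. The lysosomal protease CTSC ranged from -0.85 to -0.27, and RBM7, an RNA-binding cofactor of the nuclear exosome, from -0.72 to -0.09. CEP57 of the centrosome (-1.03 to -0.18), the kinetochore protein ZW10 (-0.81 to -0.01), MRE11A (-0.84 to -0.18) and USP28 (-0.79 to -0.31) covered similar spans.

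**Figure D3:**
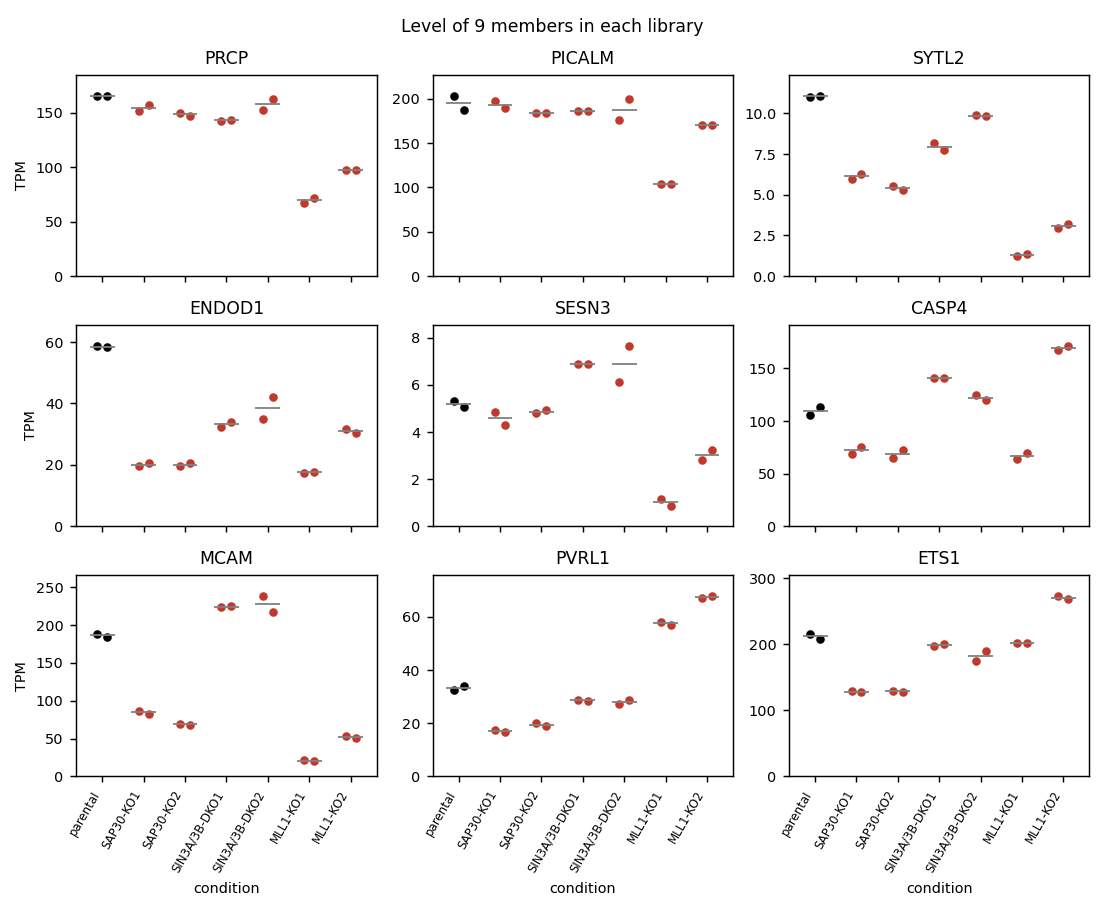
TPM (y axis, from 0) of 9 members in each of the 14 libraries by condition (x axis), with points for single libraries, black for parental and red for edited lines, and a grey bar at the mean of the 2 libraries. MCAM ranges from 20.8 TPM in MLL1-KO1 to 238 TPM in SIN3A+SIN3B-DKO2, while PVRL1 is highest in the MLL1-KO lines.

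ETS1 (chr11:128328656-128457453) and FLI1 (chr11:128556430-128683162) encode related transcription factors of the ETS family and are neighbours. ETS1, the most abundant of the transcription factor and chromatin members, stood at 216 and 209 TPM in parental cells, with SAP30-KO1 at 130.1 and 127, SAP30-KO2 at 129 and 129, SIN3A+SIN3B-DKO1 at 197 and 201, SIN3A+SIN3B-DKO2 at 175 and 191, MLL1-KO1 at 202 and 202 and MLL1-KO2 at 273 and 269.5. The SAP30-KO libraries lay below all others, and MLL1-KO2 lay above parental. FLI1 was too low to be tested. It had 1 to 4 reads in the parental libraries, 4 to 7 in the SAP30-KO libraries, 16 to 21 in the SIN3A+SIN3B-DKO libraries and 0 to 2 in the MLL1-KO libraries. At so few reads no fold is given, and intervals would cover counting error only. The other members below the filter were CADM1, an adhesion molecule with 0 reads in all 14 libraries (which allows up to 3 reads in each), USP2 with 0 to 8 reads, the sorting receptor SORL1 with 1 to 25 reads, and the protease ST14 with 3 to 18 reads and its highest values in parental cells.

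NPAT and ATM, and NCAPD3 and VPS26B, are neighbouring pairs transcribed away from each other. The bases before their RefSeq starts are shown because the genes of a pair start close together. Each of these genes had a log2 fold change below 0 in all 6 lines. They are among the 34 of 47 tested members of which this held, beside 96 of the other 151 arm genes. NPAT (chr11:108027942-108093365), a coactivator of histone genes, and ATM (chr11:108093771-108239829), the kinase that answers double-strand breaks, are separated by 405 bases on GRCh37. NCAPD3 (chr11:134020008-134095398), a subunit of condensin II, and VPS26B (chr11:134094565-134117682), a retromer subunit, overlap by 834 bases in their GENCODE extents. Taken from the RefSeq starts used below, they do not overlap. Each sequence holds the 250 bases before the start, 5′ to 3′ on the gene's strand, from RefSeq on GRCh38.p14 (for ATM and NCAPD3, 1 of 2 listed starts), with CCAAT boxes in capitals (CCAAT, or ATTGG where the box lies on the other strand). The sequences of NPAT (chr11:108222639-108222888) and ATM (chr11:108222817-108223066) share 72 bases, whereas those of NCAPD3 (chr11:134223968-134224217) and VPS26B (chr11:134224421-134224670) are 203 bases apart.
NPAT: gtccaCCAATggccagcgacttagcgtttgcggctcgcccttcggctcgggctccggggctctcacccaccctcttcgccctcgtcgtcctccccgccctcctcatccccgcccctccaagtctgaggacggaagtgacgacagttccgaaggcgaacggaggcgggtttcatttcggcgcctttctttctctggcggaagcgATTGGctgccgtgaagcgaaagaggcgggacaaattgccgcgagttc
ATM: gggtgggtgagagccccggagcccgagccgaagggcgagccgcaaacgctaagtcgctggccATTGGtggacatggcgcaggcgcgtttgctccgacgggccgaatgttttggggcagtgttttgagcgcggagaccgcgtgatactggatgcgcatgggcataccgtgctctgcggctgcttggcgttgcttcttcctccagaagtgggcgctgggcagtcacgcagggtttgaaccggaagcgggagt
NCAPD3: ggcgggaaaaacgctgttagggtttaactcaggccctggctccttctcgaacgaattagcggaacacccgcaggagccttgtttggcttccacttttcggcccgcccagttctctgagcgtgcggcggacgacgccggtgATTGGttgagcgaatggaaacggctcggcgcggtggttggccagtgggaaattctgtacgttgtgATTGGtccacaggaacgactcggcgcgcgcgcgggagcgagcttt
VPS26B: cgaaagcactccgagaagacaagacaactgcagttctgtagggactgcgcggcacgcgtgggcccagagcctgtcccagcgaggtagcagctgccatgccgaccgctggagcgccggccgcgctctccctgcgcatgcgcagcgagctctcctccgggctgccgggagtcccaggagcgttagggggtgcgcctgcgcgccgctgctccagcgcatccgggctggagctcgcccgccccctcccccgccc

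The windows of NPAT and NCAPD3 held 2 matches each and that of ATM held 1, which is the same box as the first of NPAT read from the other strand. VPS26B had 0. A match on either strand was present in 32.0% of 35116 RefSeq windows of this length. GC content was 64.0% for NPAT, 64.4% for ATM, 60.4% for NCAPD3 and 72.4% for VPS26B, against a median of 58.0% over all windows. A match is a description of the letters only.

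NPAT stood at 35.8 and 35.1 TPM in parental cells, with SAP30-KO1 at 19.97 and 20.2, SAP30-KO2 at 18.8 and 19.1, SIN3A+SIN3B-DKO1 at 25.6 and 26.8, SIN3A+SIN3B-DKO2 at 26.1 and 31.96, MLL1-KO1 at 20.4 and 20.7 and MLL1-KO2 at 29.9 and 28.4. ATM stood at 29.7 and 26.5 TPM in parental cells, with SAP30-KO1 at 19.1 and 15.2, SAP30-KO2 at 17.4 and 17.9, SIN3A+SIN3B-DKO1 at 23.2 and 21.97, SIN3A+SIN3B-DKO2 at 21.2 and 27.6, MLL1-KO1 at 13.8 and 11.5 and MLL1-KO2 at 17.5 and 17.3. Every edited library of NPAT lay below parental, and for ATM all did except 1 library of SIN3A+SIN3B-DKO2 at 27.6 TPM, which lay between the parental values. The log2 fold changes of NPAT and ATM were -0.77 and -1.13 in MLL1-KO1 (SE 0.08 and 0.13) and -0.28 and -0.67 in MLL1-KO2. NCAPD3, the most abundant of the mitosis members, stood at 110.4 and 110.5 TPM in parental cells, with SAP30-KO1 at 68.8 and 66.8, SAP30-KO2 at 70.3 and 69.7, SIN3A+SIN3B-DKO1 at 84.02 and 83.9, SIN3A+SIN3B-DKO2 at 92.5 and 95.9, MLL1-KO1 at 63.2 and 61.1 and MLL1-KO2 at 70.01 and 72.1. VPS26B stood at 63.8 and 63.8 TPM in parental cells, with SAP30-KO1 at 32.5 and 32.05, SAP30-KO2 at 33.9 and 34.4, SIN3A+SIN3B-DKO1 at 41.4 and 40.1, SIN3A+SIN3B-DKO2 at 47.6 and 45.7, MLL1-KO1 at 31.5 and 34.8 and MLL1-KO2 at 57.3 and 57.9. All edited libraries of both genes lay below parental, and the genes of this pair parted in MLL1-KO2, where NCAPD3 had a log2 fold change of -0.63 (SE 0.03) and VPS26B of -0.15 (SE 0.05). Without a statement that the counting used strand, reads in the stretch that both genes cover in GENCODE cannot be assigned. The same holds for CEP57 with MTMR2 and SIK2 with PPP2R1B. STT3A and CHEK1, on the same strand, overlap by 53 bases.

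The edited lines were then compared with each other, in comparisons that hold no parental library. SAP30-KO1 and SAP30-KO2 did not differ in any member at the call threshold of limma with Benjamini-Hochberg adjustment (0 of 47, beside 0.148% of all tested genes). At an unadjusted p under 0.05 there were 9 members, at an adjusted p under 0.05 without the fold limit there was 1, and limma voom on the recovered reads called 0. The largest difference was that of BIRC3, 0.40 higher in SAP30-KO1 (95% confidence interval 0.21 to 0.60, limma adjusted p = 0.0967), and intervals for the members had a median width of 0.13 to either side. Between SIN3A+SIN3B-DKO1 and SIN3A+SIN3B-DKO2 only BIRC3 was called, 0.74 higher in SIN3A+SIN3B-DKO1 (SE 0.09, limma adjusted p = 0.000494), where 2.23% of all tested genes were called.

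The MLL1-KO lines differed more. All 47 members had a lower value in MLL1-KO1 than in MLL1-KO2, with a median log2 difference of -0.48, against -0.59 for the other 151 arm genes and -0.05 over all tested genes. Of the other 151 arm genes 76 were called lower and 1 higher. Of the members 15 were called lower and 0 higher, beside 7.15% of all tested genes called lower and 3.27% higher. On the log2(TPM + 0.5) scale CASP4 differed most (-1.34, SE 0.06, limma adjusted p = 9.51e-08). MCAM (-1.30, SE 0.05, limma adjusted p = 1.3e-08) and SESN3 (-1.22, SE 0.13, limma adjusted p = 3.19e-05) followed. The added 0.5 TPM narrowed the difference of SESN3, which had means of 1.02 TPM in MLL1-KO1 and 3.03 TPM in MLL1-KO2. The other 12, from SYTL2 (-0.99) to MAML2 (-0.60), included REXO2, BIRC2, VPS26B and CBL. When the running median of 51 neighbouring genes was subtracted from each library, 3 of the 15 kept their call, and they were the same CASP4 (-0.79), MCAM (-0.74) and SESN3 (-0.68).

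Genotypes were compared line by line, and a member counted only if it was called in the same direction in all 4 comparisons of a line of 1 genotype with a line of the other. Between both SAP30-KO and both SIN3A+SIN3B-DKO lines 8 members were lower in SAP30-KO and 0 higher, beside 1.57% and 1.91% of all tested genes. Of the other 151 arm genes 31 were lower and 0 higher. The members' median difference was -0.49, against -0.50 for the other arm genes. MCAM differed most, with a mean log2 difference of -1.56 (SE of a single comparison of lines 0.05, as in the values that follow, and largest limma adjusted p of the 4 comparisons = 1.57e-08). MTMR2 (chr11:95554930-95658479), a phosphoinositide phosphatase, stood at 103 and 99.4 TPM in parental cells, with SAP30-KO1 at 43.9 and 41.6, SAP30-KO2 at 38.7 and 38.99, SIN3A+SIN3B-DKO1 at 84.2 and 82.02, SIN3A+SIN3B-DKO2 at 82.4 and 89.7, MLL1-KO1 at 44.05 and 45.9 and MLL1-KO2 at 69.8 and 65.6. Its mean difference was -1.04 (SE 0.05, largest limma adjusted p = 3.63e-07), and no SAP30-KO library reached the lowest SIN3A+SIN3B-DKO library. CASP4 followed with -0.89 (SE 0.06, largest limma adjusted p = 8.33e-06). The others were ENDOD1, the kinases SIK2 and SIK3, the protein phosphatase scaffold PPP2R1B, and SRPR, a subunit of the receptor for the signal recognition particle, with differences from -0.64 to -0.82. With the running median of the neighbours subtracted, 2 members were called, MCAM (-0.97) and TMEM135 (0.71). MTMR2 (-0.58) and CASP4 (-0.41) were not called. Without the subtraction TMEM135 was not called in any of the 4 comparisons (0.33 to 0.42). It lies between 80 and 87 Mb, where 17 genes were tested, fewer than the running median spans. In the SAP30-KO lines those 17 had medians of -0.04 and -0.23. Long arm genes before 80 Mb had -0.46 and -0.44, and genes beyond 89 Mb had -0.80 and -0.81. The part of these flanking genes in the call of TMEM135 was not tested.

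Both MLL1-KO lines differed from both SAP30-KO lines in 2 members called higher and 2 called lower, beside 3.24% and 8.58% of all tested genes. PVRL1 was higher in MLL1-KO by a mean of 1.75 (SE 0.05, largest limma adjusted p = 9.65e-10) and ETS1 by 0.86 (SE 0.04, 1.53e-07 likewise). SYTL2 had a mean difference of -1.30 (SE 0.08, largest limma adjusted p = 1.55e-05) and PRCP of -0.87 (SE 0.04, 2.72e-07 likewise). SYTL2 was no longer called in all 4 comparisons after quantile normalization (-1.08), nor was PRCP after quantile normalization (-0.81) or median ratio scaling (-0.77). With the running median of the neighbours subtracted 8 members were called, these 4 and also MCAM (-1.29), SESN3 (-1.28), BIRC3 (-0.86) and SIK3 (0.64). Like TMEM135, PRCP and SYTL2 lie between 80 and 87 Mb, where fewer genes were tested than the running median spans. The part of flanking genes in their values after subtraction was not tested.

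Against both SIN3A+SIN3B-DKO lines, both MLL1-KO lines were lower in 4 members and higher in 1, beside 7.5% and 3.63% of all tested genes. MCAM had a mean difference of -2.74 (SE 0.05, largest limma adjusted p = 4.86e-11), and its MLL1-KO libraries, at 20.8 to 53.8 TPM, lay far under the SIN3A+SIN3B-DKO libraries at 217 TPM or more. SYTL2 followed with -1.88 (SE 0.08, 1.81e-07 likewise), SESN3 with -1.68 (SE 0.13, 3.48e-05 likewise) and BIRC3 with -1.42 (SE 0.09, 9.47e-06 likewise). PVRL1 was higher by 1.13 (SE 0.05, 2.13e-08 likewise). The same 5 members were called with the running median of the neighbours subtracted.

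**Figure D4:**
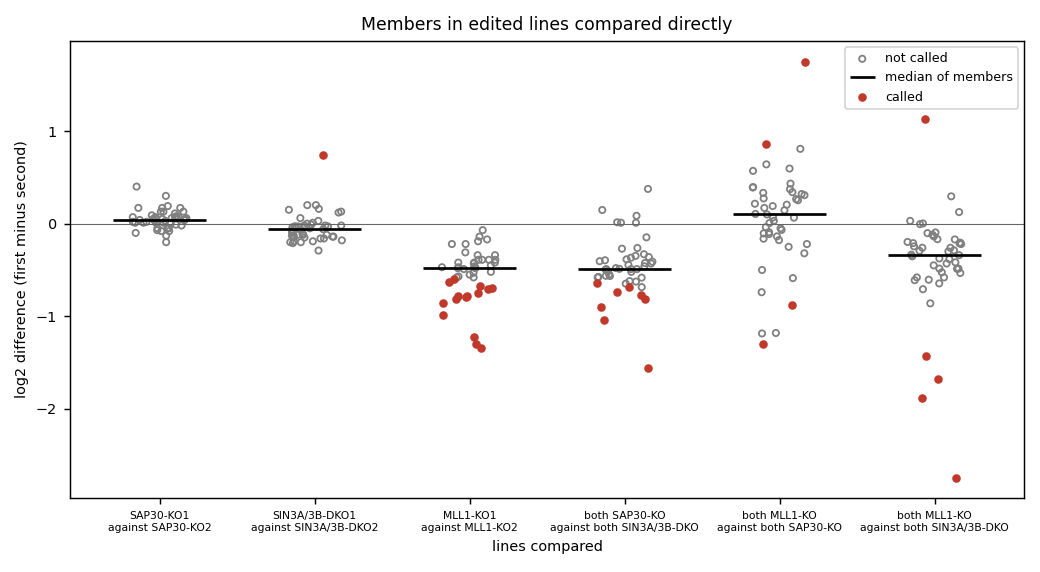
Log2 difference (y axis, first named minus second) of the 47 tested members in the 6 comparisons of edited lines (x axis), with called members in red, others as open circles and the members' median as a bar. For pairs of genotypes a point is the mean of 4 comparisons of lines; the medians lie at 0.04 and -0.06 for the lines of the SAP30-KO and SIN3A+SIN3B-DKO genotypes and at -0.48 for those of MLL1-KO.

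Many members act in complexes whose other parts are encoded elsewhere. For 21 members 53 genes were listed as partners, none on the distal arm, and all 53 were tested. Some of them are paralogs or relatives of the member rather than parts of its complex, such as STT3B, VPS26A, PPP2R1A, CBLB, SIK1, MAML1 and XIAP. CLP1 and CSTF3 lie elsewhere on chromosome 11, with -0.45 and -0.36 (CLP1) and -0.18 and -0.26 (CSTF3) in the SAP30-KO lines. The median log2 fold changes of all 53 from parental were -0.02 and -0.03 in the SAP30-KO lines, -0.05 and 0.02 in the SIN3A+SIN3B-DKO lines, and -0.06 and -0.18 in the MLL1-KO lines. Those of the 21 members were -0.80, -0.81, -0.37, -0.31, -0.90 and -0.40. In the same order 1, 2, 3, 1, 3 and 5 partners were called lower, beside 7.86%, 8.12%, 8.66%, 7.56%, 16.3% and 14.9% of all tested genes, and 2, 2, 1, 1, 2 and 2 were called higher, beside 7.8%, 7.44%, 7.76%, 6.0%, 6.89% and 10.2%. No partner was called in the same direction in all 6 lines. The partners named next were therefore chosen after their values were seen.

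The MRE11 complex joins MRE11A to NBN and RAD50. NBN was called lower in 5 lines, with log2 fold changes from -0.59 to -0.95 (SE 0.09, limma adjusted p from 5.98e-06 to 0.00021), and stood at -0.55 in SAP30-KO1. RAD50 was called lower in both MLL1-KO lines, at -1.06 and -0.77 (SE 0.07, limma adjusted p = 1.38e-07 and 1.66e-06), and lay between -0.34 and 0.08 in the others. VPS35, the retromer core bound by VPS26B, was called lower in 3 lines and lay between -0.46 and -0.71 in all 6 (SE 0.03). By contrast STT3B, the other catalytic subunit beside STT3A, lay between -0.27 and 0.21 (SE 0.05), and VPS26A, the paralog of VPS26B, between -0.11 and 0.13 (SE 0.06). The inhibitor of apoptosis XIAP, a relative of BIRC2, was called higher in 3 lines, at 0.59 to 0.69 (SE 0.07, limma adjusted p from 9.01e-06 to 3.38e-05). RBPJ, the DNA-binding factor of Notch signalling that MAML2 joins, was called higher in both SAP30-KO lines (0.78 each) and in MLL1-KO2 (1.0, SE 0.09, limma adjusted p from 1.85e-06 to 2.45e-05). SH3KBP1, a partner of CBL, was called higher in both MLL1-KO lines (0.85 and 1.15). Clathrin heavy chain CLTC was called lower in SAP30-KO1 (-0.59) and SIN3A+SIN3B-DKO1 (-0.61), and the Polycomb subunit SUZ12 in SIN3A+SIN3B-DKO1 (-0.67) and MLL1-KO2 (-0.96). Each called in 1 line were DLD (-0.73 in MLL1-KO2), CBLB (0.63 in SIN3A+SIN3B-DKO1) and SIK1 (0.59 in MLL1-KO1), which completes the partners called in any line.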

How the data were processed

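RNA of the 14 libraries was prepared by the authors with the KAPA mRNA HyperPrep kit. The submitters' processing notes list FastQC 0.11.2, TopHat, featureCounts and hg19 without roles; the annotation is not given in the sources used here. The values the authors deposited carry the name RPKM, but each library adds up to 1000000, so they were treated here as TPM. Whole reads were recovered for 100% of 18519 genes (tolerance 0.01 reads). TPM are shares of a library and carry no total RNA per cell.

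Genes with at least 1 TPM in at least 2 libraries (13540) were fitted as log2(TPM + 0.5) by limma 3.58.1 (R 4.3.3), with a mean for each of 7 conditions, all 14 libraries and a mean-variance trend. The design had been written for RPKM, and the same test was kept. The fit was also run on simulated reads with equal dispersion in all libraries, which these data did not have. No result here rests on that run. Positions came from GENCODE 44 lifted to GRCh37, with older symbols matched (12988 of 13540 genes). Values in every library are given for the 5 members at each end of the mean departure, the most abundant member of each role group, 4 neighbouring pairs and up to 3 members with the largest change per comparison of lines. Members, lists and tests were chosen with earlier results of these data known. Alternatives were other pseudocounts, no filter, quantile and median ratio scaling, a replicate block, fits over fewer libraries, limma voom, a running median of 51 neighbouring genes, and leaving out libraries. Spreadsheet dates stood in place of 28 gene names, which were left so.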

Additional observations from a re-analysis of the deposited data

Results flagged for a closer look

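Among 47 members, 13 differences between edited lines are listed because a direct test of the difference with limma and Benjamini-Hochberg adjustment called them, each among the 3 largest of its comparison. Between the lines of 1 genotype they were BIRC3, 0.74 higher in SIN3A+SIN3B-DKO1 than in SIN3A+SIN3B-DKO2, and CASP4 (-1.34), MCAM (-1.30) and SESN3 (-1.22) in MLL1-KO1 against MLL1-KO2. For both SAP30-KO lines against both SIN3A+SIN3B-DKO lines they were MCAM (-1.56), MTMR2 (-1.04) and CASP4 (-0.89). For both MLL1-KO lines against both SAP30-KO lines they were PVRL1 (1.75), SYTL2 (-1.30) and PRCP (-0.87), and against both SIN3A+SIN3B-DKO lines MCAM (-2.74), SYTL2 (-1.88) and SESN3 (-1.68). Values are log2 differences, as means of 4 comparisons where genotypes are set against each other. Between the SIN3A+SIN3B-DKO lines 2.13% of members were called, beside 2.23% of all tested genes. For MLL1-KO against SAP30-KO 8.51% of members were called, beside 8.58% of all tested genes lower and 3.24% higher. For MLL1-KO against SIN3A+SIN3B-DKO 10.6% were called, beside 7.5% lower and 3.63% higher. There the members were not called more often than all tested genes. Among the listed differences MCAM appears in 3 comparisons. The overlap of MCAM with CBL on the other strand, 5398 bases, was present in every library. So was that of MTMR2 with CEP57 on the other strand, 10928 bases. The part of these overlaps in the result was not tested.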

How the results depend on the processing

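Of the recomputed counts and medians, 172 stayed within their tolerance (1.5 times for a count, 1 SD between libraries for a median) and 21 moved beyond it. Of the recomputed differences of named members, 200 kept their call and 5 lost it. The sign changed in 0 of them. After subtraction of a running median of 51 neighbours, the members called went from 15 to 3 between the MLL1-KO lines, from 8 to 2 between SAP30-KO and SIN3A+SIN3B-DKO, and from 4 to 8 between MLL1-KO and SAP30-KO. The median log2 fold change of the members was -0.76 in SAP30-KO1 with a pseudocount of 1 and -0.83 with median ratio scaling. Quantile normalization and median ratio scaling both gave -0.84 for MLL1-KO1, and -0.39 and -0.37 for MLL1-KO2. Quantile normalization moved the median of all genes by 0.127 for MLL1-KO1 and by 0.065 for MLL1-KO2. With 1 library left out, the median ran from -0.80 to -0.77 in SAP30-KO1, -0.39 to -0.33 in SIN3A+SIN3B-DKO1, -0.30 to -0.20 in SIN3A+SIN3B-DKO2, -0.95 to -0.90 in MLL1-KO1 and -0.45 to -0.40 in MLL1-KO2, and the members departing from the arm from 0 to 1. Counted in both lines of a genotype, 12 departed. Partners called in SIN3A+SIN3B-DKO2 went from 2 to 1 with median ratio scaling, and from 1 to 3 with 1 library left out. The cause of these changes was not tested.

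No shared effect of the replicate number was seen, since deviations of same-numbered libraries had a mean correlation of 0.0149 over 21 pairs (-0.073 to 0.0823). Whether libraries were paired by batch or culture is not stated in the labels. With the replicate number as a block, 0, 1, 15, 8, 4 and 5 members were called in the 6 comparisons of lines, the same counts as without it, and the medians against parental were as before.

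Differences between lines under 1.5-fold were not called, whatever their adjusted p, and members with few reads were not tested.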
